A study of Arabidopsis thaliana with 4 samples.

Results

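Pentatricopeptide repeat (PPR) genes whose products are annotated to chloroplasts or mitochondria were examined in young seedlings of Arabidopsis thaliana. A gene was a member when its description in the authors' table named a pentatricopeptide repeat and also held the word chloroplastic or mitochondrial. This took 149 of the 26784 genes in the table, 41 chloroplastic and 108 mitochondrial, and none held both words. Another 226 genes were described as pentatricopeptide repeat genes with neither word, out of 375 such genes in all. The seedlings were wild type, of the Col-0 accession, and were collected at 6 days post germination (6 dpg) and at 2 dpg, with 2 libraries of total RNA at each age. Both ages grew on Murashige and Skoog medium with sucrose after a cold period in the dark. The labels do not tell if libraries of 1 age were grown apart, and each p-value rests on the scatter of these 4 libraries alone, which could be technical.

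PPR proteins are made in the cytosol from nuclear genes and are carried into the plastid or the mitochondrion, where each binds a few organelle transcripts through tandem helical repeats that read the RNA base by base. Members of the P class take part in splicing, end processing, stabilisation and translation of organelle RNA. Members of the PLS class, many of which end in a DYW domain with cytidine deaminase activity, direct C-to-U editing of organelle transcripts. In seedlings, loss of plastid PPR proteins often gives pale leaves, and loss of mitochondrial ones often slows growth through defects of the respiratory chain.

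The table's genes end at position 3070933 of chromosome 5, and genes beyond it were not analysed here. The reads on the table's genes numbered 18336468 and 14845619 at 6 dpg, against 21217252 and 16478848 at 2 dpg (replicate 1 given before replicate 2 here and below). Normalised counts (CPM) were scaled to recovered library totals and edgeR's TMM factors, and 3 reads corresponded to 0.113 to 0.164 CPM. Fold changes are 6 dpg over 2 dpg with n = 2 libraries at each age, and a gene was called when edgeR's quasi-likelihood test gave a Benjamini-Hochberg adjusted p under 0.05 over all genes tested. Markers of photosynthetic tissue were lower in sum at 6 dpg, with 17300 to 18400 CPM against 29200 to 29900 CPM at 2 dpg, and 3 of the 4 fell. Markers of dividing cells summed to 41.5 to 45.2 CPM at 6 dpg and 79.0 to 85.5 CPM at 2 dpg, with 5 of 6 lower, and those of root endodermis and root hairs to 35.3 to 39.9 CPM at 6 dpg and 141 to 183 CPM at 2 dpg, with 4 of 4 lower. The seed reserve list (ICL, SESA1, CRB and CRC) summed to 33 to 33.3 CPM at 6 dpg and 1730 to 2850 CPM at 2 dpg. Only 1 of its 4 genes was tested, and it was lower. SESA1 had under 3 reads in every library, so the sum does not describe the list as a group. Root tip markers (16.7 to 18.0 CPM at 6 dpg, 24.6 to 27.4 CPM at 2 dpg; 1 of 2 lower) and xylem markers (20.3 to 22.6 CPM at 6 dpg, 32.1 to 37.5 CPM at 2 dpg; 1 of 2 lower) also had no gene called higher. Shoot meristem markers summed to 3.12 to 3.53 CPM at 6 dpg and 3.47 to 4.14 CPM at 2 dpg, with none called. The part of these shifts in the results on PPR genes was not tested, and in seedling RNA fewer cells of a type and less RNA per cell cannot be told apart.

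Most members of either target were not called, and among those called with the main settings, rises outnumbered falls. For chloroplastic members this balance turned under some of the settings given below. Of the 41 chloroplastic members, all tested, 9 rose and 6 fell at 6 dpg, and their median log2 fold change was -0.01, with quartiles of -0.25 and 0.38. Of the 108 mitochondrial members, 105 were tested, 25 rose and 7 fell, and their median log2 fold change was 0.32, with quartiles of -0.12 and 0.81. Calls were a smaller share than among all genes: 15 chloroplastic members (36.6%) and 32 mitochondrial members (30.5%) were called, against 56.6% of the 16160 genes tested. Over all genes the calls were even, with 28.3% higher and 28.4% lower and a median log2 fold change of 0.00. Of the mitochondrial members 23.8% were called higher and 6.67% lower, and of the chloroplastic members 22.0% higher and 14.6% lower. A rise of at least 2-fold passed the test in 4 chloroplastic and 8 mitochondrial members, against 11.6% of all genes, and no member fell by 2-fold, against 12.5% of all genes.

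The order of the 4 libraries describes the same genes without a test. Both 6 dpg libraries lay above both 2 dpg libraries in 16 chloroplastic members and below them in 13. Among the tested mitochondrial members, 54 lay above and 15 below. Over all genes tested, 40.4% lay above and 40.2% below, 80.6% together. The median log2 fold change of the chloroplastic members was 0.33 below that of the mitochondrial members, and this difference, which was not tested, lay between -0.47 and -0.23 under every alternative tried. It was not the same at every depth. Among members with a mean normalized count of 20 to 50 the median log2 fold change was -0.15 over 3 chloroplastic members and 0.61 over 28 mitochondrial members, and from 50 to 100 counts -0.24 over 7 and 0.21 over 24. From 100 to 200 counts it was 0.31 over 6 chloroplastic and 0.36 over 21 mitochondrial members. At higher counts the order turned, with 0.07 over 10 chloroplastic and -0.10 over 12 mitochondrial members from 200 to 500 counts, and -0.07 over 15 and -0.12 over 4 at 500 counts or more. The 16 mitochondrial members under 20 counts, which had no chloroplastic counterpart, had a median of 0.58. Across the 105 tested mitochondrial members Spearman's rho between count and fold change was -0.21, against -0.01 across the 41 chloroplastic members and 0.02 across all tested genes, all from the same 4 libraries.

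The counts of calls depended on the settings. DESeq2 called 6 chloroplastic members higher and 4 lower, and 12 mitochondrial members higher and 2 lower. Ribosomal protein scaling used those of 205 cytosolic ribosomal protein genes that had a mean count of at least 20 and reads in every library. It moved the median of all genes to 0.35 and called 13 chloroplastic and 44 mitochondrial members higher and none lower. The falls of members described here are therefore relative to the scaling. With DESeq2's size factors 6 chloroplastic and 7 mitochondrial members were called lower, as with TMM. Removing the trend of fold change on gene length called 7 chloroplastic members higher and 10 lower, and 17 mitochondrial members higher and 13 lower. Leaving out a library leaves 1 library at its age, so the spread then comes from the pair at the other age and the lone library is assumed to vary like it. Without 6 dpg replicate 1 the falls came down to 1 chloroplastic and 2 mitochondrial members. Without 6 dpg replicate 2 there were 5 rises and 3 falls among chloroplastic members and 16 rises and 4 falls among mitochondrial members, and without 2 dpg replicate 1 the mitochondrial falls were 3.

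**Figure D1:**
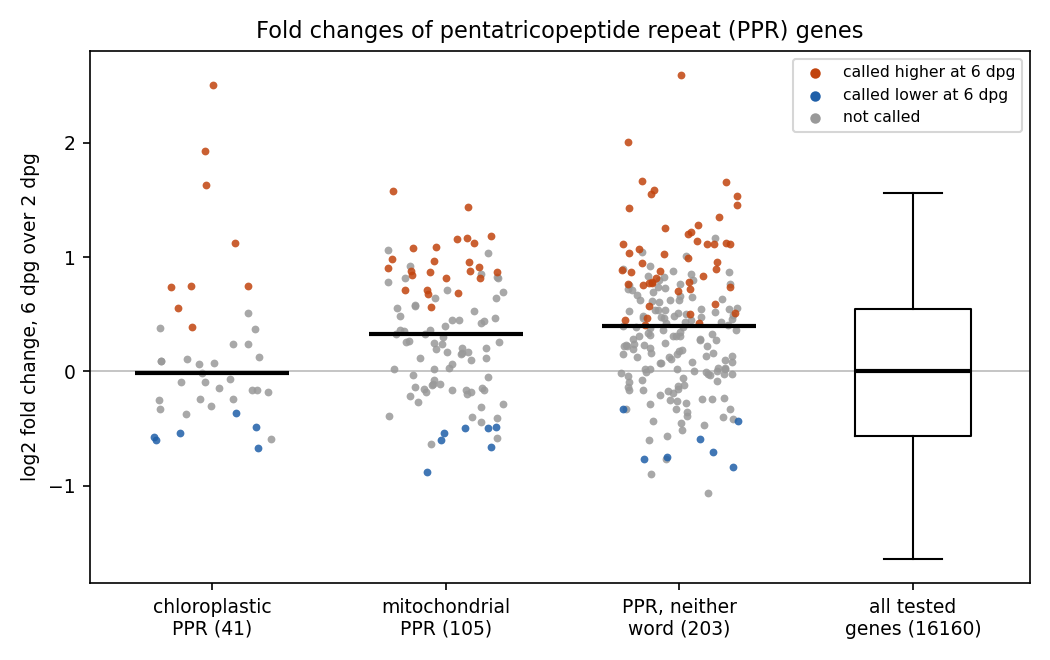
Log2 fold change at 6 dpg over 2 dpg of each tested PPR gene, by target, with all tested genes as a box (quartiles, whiskers at the 5th and 95th percentiles). Points are genes, orange where called higher, blue where called lower and grey where not called, and thick lines are medians: -0.01 for chloroplastic members, 0.32 for mitochondrial members, 0.39 for PPR genes with neither word and 0.00 for all genes.

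Chloroplastic members stood at higher levels than mitochondrial ones in every library. Levels between genes were compared in the authors' FPKM, which is per gene length. The median chloroplastic member had 6.77 and 7.32 FPKM in the 6 dpg libraries, against 5.12 and 6.49 FPKM in the 2 dpg libraries. The median mitochondrial member had 1.71 and 1.69 FPKM at 6 dpg, against 1.32 and 1.30 FPKM at 2 dpg. Across all tested genes the median was 9.16 and 9.20 FPKM at 6 dpg and 7.46 and 8.06 FPKM at 2 dpg. Over all 26784 genes, tested or not, the median of the genes' mean FPKM was 1.73 at 6 dpg and 1.64 at 2 dpg, against 1.65 FPKM at 6 dpg and 1.37 FPKM at 2 dpg over all 108 mitochondrial members. On the log2(CPM + 0.5) scale, the mean over chloroplastic members exceeded that over mitochondrial members by 1.90 and 1.92 in the 6 dpg libraries and by 1.95 and 2.09 in the 2 dpg libraries.

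Summed over members, the mitochondrial genes took 647.9 and 667.0 CPM at 6 dpg, against 580.4 and 547.6 CPM at 2 dpg, so both 6 dpg libraries were above both 2 dpg libraries. Chloroplastic members took 1398 and 1408 CPM at 6 dpg, against 1344 and 1454 CPM at 2 dpg, and the ages overlapped. One gene, GUN1, set much of the second sum: it held 20.7% and 20.7% of the chloroplastic members' reads at 6 dpg and 33.9% and 32.2% at 2 dpg. Without GUN1 the other 40 chloroplastic members summed to 1108 and 1117 CPM at 6 dpg, against 888.6 and 986.3 CPM at 2 dpg. Much of that difference lay in AT5G04810, with 218 and 210 CPM at 6 dpg, against 57.3 and 80.8 CPM at 2 dpg.

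**Figure D2:**
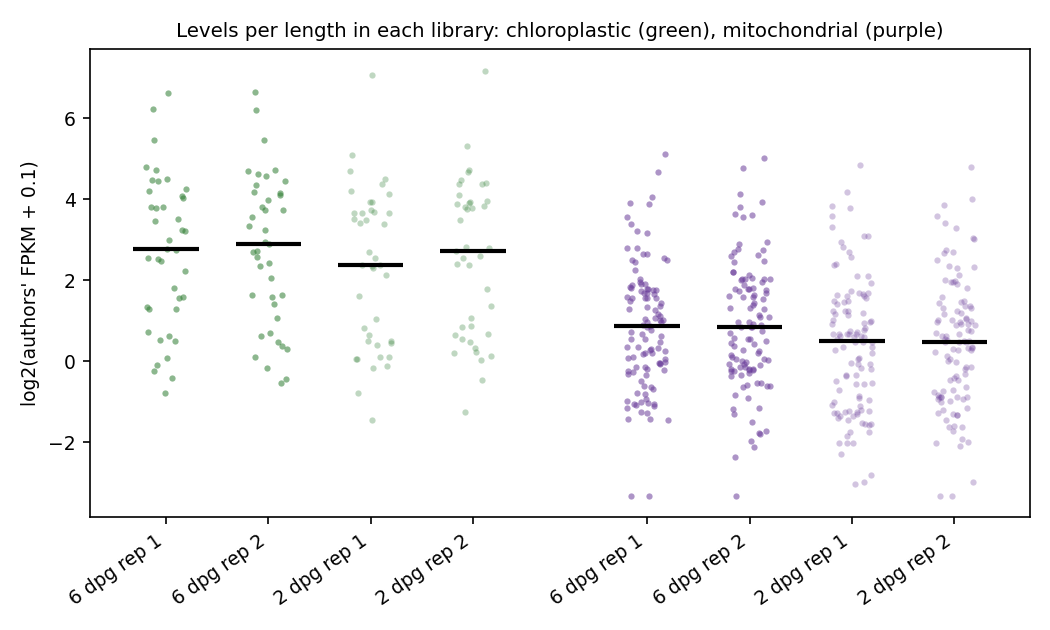
Authors' FPKM of every member in each library, as log2(FPKM + 0.1), with chloroplastic members in green and mitochondrial members in purple and 6 dpg left of 2 dpg. Points are genes and thick lines are medians, from 1.30 to 1.71 FPKM for mitochondrial members and from 5.12 to 7.32 FPKM for chloroplastic members.

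The lower levels left fewer reads for the test. Members with a mean normalized count under 20 were all mitochondrial, and 0 of 16 were called, against 36.0% of all genes at that depth. Between 20 and 50 counts, 1 of 3 chloroplastic and 10 of 28 mitochondrial members were called, against 41.6% of all genes. Between 50 and 100 counts the numbers were 1 of 7 and 6 of 24, against 49.4%. Between 100 and 200 counts they were 3 of 6 and 7 of 21, against 53.9%, and between 200 and 500 counts 3 of 10 and 7 of 12, against 58.6%. At 500 counts or more, which only 4 mitochondrial members reached, 7 of 15 and 2 of 4 were called, against 66.6%. The 3 mitochondrial members that were not tested had almost no reads. AT1G63070 had 0 and 0 reads at 6 dpg and 2 and 0 at 2 dpg, AT2G34370 had 0 and 4 at 6 dpg and 1 and 0 at 2 dpg, and AT2G46050 had 11 and 3 at 6 dpg and 1 and 1 at 2 dpg.

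**Figure D3:**
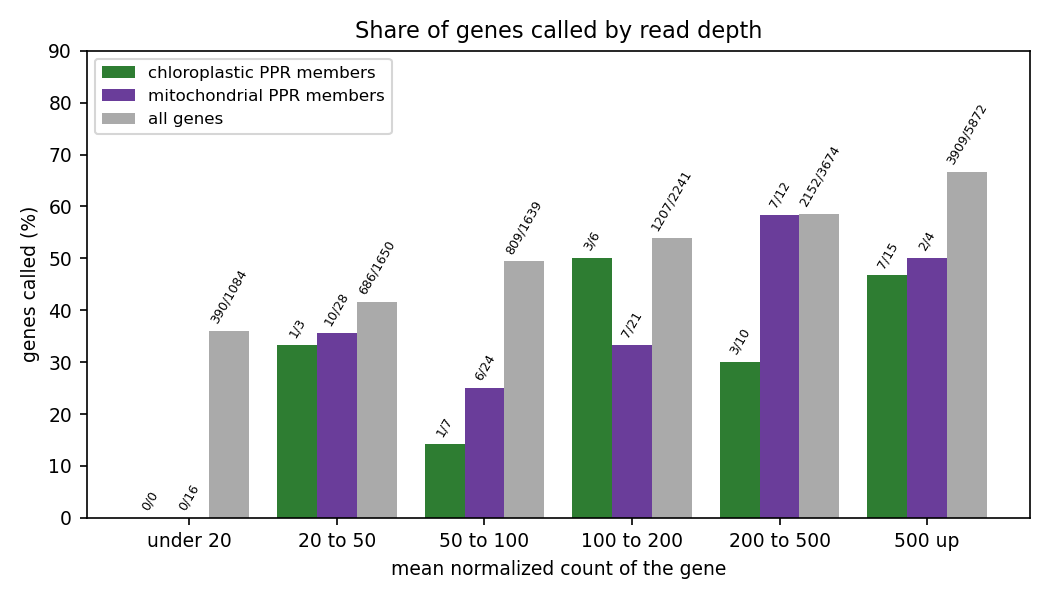
Share of genes called in each class of mean normalized count, for chloroplastic members (green), mitochondrial members (purple) and all tested genes (grey), with called over tested genes above each bar. Among all genes the share runs from 36.0% under 20 counts to 66.6% at 500 or more, and none of the 16 mitochondrial members under 20 counts was called.

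Among chloroplastic members the rises were larger than the falls, from a log2 fold change of 0.39 to 2.51, while the 6 falls lay between -0.67 and -0.36. The largest rise was in AT1G02060, which has no symbol and lies on the minus strand of chromosome 1 from 360918 to 363094 in the authors' coordinates, with 1 coding segment in RefSeq. It had 16.2 and 15.4 CPM at 6 dpg, against 2.29 and 3.32 CPM at 2 dpg. The ages were far apart, with a log2 fold change of 2.51 ± 0.20 (SE) and an edgeR adjusted p of 2.32e-05. ECB2 (AT1G15510, chromosome 1 from 5329111 to 5331711, plus strand) is needed for editing of the plastid accD and ndhF transcripts and for early chloroplast biogenesis. It had 8.36 and 9.98 CPM at 6 dpg, against 2.34 and 2.46 CPM at 2 dpg. Neither age overlapped the other, and the log2 fold change was 1.93 ± 0.20 (adjusted p = 7.88e-05). AT5G04810, which the authors' table also names PPR4, lies on the plus strand of chromosome 5 from 1390034 to 1393930 in 10 coding segments; in maize PPR4 is known for trans-splicing of the plastid rps12 intron. It had 218 and 210 CPM at 6 dpg, against 57.3 and 80.8 CPM at 2 dpg. This was the most abundant member with a 2-fold rise, at a mean of 74.5 FPKM at 6 dpg and 21.5 FPKM at 2 dpg, and its log2 fold change was 1.63 ± 0.16 (adjusted p = 7.55e-05).

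The other chloroplastic rises were smaller or rested on fewer reads. HCF152, which stabilises processed transcripts of the plastid psbB operon, had 28.0 and 29.0 CPM at 6 dpg, against 16.5 and 17.6 CPM at 2 dpg. The ages did not overlap (log2 fold change 0.74 ± 0.12, adjusted p = 0.000843; 0.49 and still called with the length trend removed), although its span overlaps another gene and the library kit does not mark strand, so reads of the pair cannot be told apart. AT2G30100 had 34.3 and 37.1 CPM at 6 dpg, against 19.3 and 23.2 CPM at 2 dpg, higher in both 6 dpg libraries with a log2 fold change of 0.75 ± 0.13 (adjusted p = 0.00147). OTP70, a factor for splicing of the plastid rpoC1 transcript, had 4.37 and 4.5 CPM at 6 dpg, against 2.09 and 3.27 CPM at 2 dpg, and its log2 fold change was 0.74 ± 0.25 (adjusted p = 0.0325). AT4G35130 had 1.5 and 1.79 CPM at 6 dpg, against 0.696 and 0.804 CPM at 2 dpg, a rise of 1.13 ± 0.34 in log2 (adjusted p = 0.0183). AT1G71460, whose span overlaps another gene, had 5.16 and 6.40 CPM at 6 dpg, against 3.73 and 4.12 CPM at 2 dpg (log2 fold change 0.56 ± 0.20, adjusted p = 0.0415). These last 3 were the weak calls. All 3 were lost without 2 dpg replicate 1 (adjusted p 0.097 to 0.173; OTP70 then 0.44 in log2), without 6 dpg replicate 2 (0.0703 to 0.234) and with DESeq2 (0.122 to 0.173); OTP70 was also lost without 6 dpg replicate 1 (0.0633) and AT1G71460 without 2 dpg replicate 2 (0.0545) and with the length trend removed (0.137).

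The 6 chloroplastic falls were led by GUN1 (AT2G31400, chromosome 2 from 13387004 to 13390706, minus strand, 4 coding segments), which acts in signalling from the plastid to the nucleus. It was the most abundant member at both ages, at 99.1 FPKM at 6 dpg and 140 FPKM at 2 dpg, and had 290 and 291 CPM at 6 dpg, against 455 and 468 CPM at 2 dpg. Replicates were close at each age and the log2 fold change was -0.67 ± 0.11 (adjusted p = 0.00112). SVR7, needed for accumulation of the plastid ATP synthase, had 36.8 and 39.2 CPM at 6 dpg, against 65.5 and 49.5 CPM at 2 dpg. The 2 dpg libraries were unequal but both above the 6 dpg ones, and the log2 fold change was -0.60 ± 0.15 (adjusted p = 0.0085), or -0.38 and still called without 2 dpg replicate 1. EMB2453 and EMB1270 carry the symbol of genes whose loss stops the embryo. EMB2453 had 14.7 and 15.9 CPM at 6 dpg, against 21.0 and 24.7 CPM at 2 dpg (log2 fold change -0.58 ± 0.13, adjusted p = 0.00599), and EMB1270 had 19.2 and 20.6 CPM at 6 dpg, against 24.1 and 31.7 CPM at 2 dpg (-0.48 ± 0.15, adjusted p = 0.0228). In both, each 6 dpg library was below each 2 dpg library. RPF3 and AT4G30825 also fell, by 0.54 and 0.36 on the log2 scale (adjusted p = 0.0268 and 0.0242). GUN1 was the only one of the 6 called with each library left out in turn: the other 5 were lost without 6 dpg replicate 1 (adjusted p 0.0557 to 0.151), RPF3, EMB1270 and AT4G30825 without 6 dpg replicate 2 (0.0577 to 0.165), and RPF3 and EMB1270 without 2 dpg replicate 2 (0.0679 to 0.0713; EMB1270 then -0.29 in log2). DESeq2 did not call RPF3 and AT4G30825 (0.0906 to 0.148). All 6, GUN1 included, were not called under ribosomal protein scaling (0.135 to 0.951), while with the length trend removed GUN1, EMB1270 and AT4G30825 stood at -1.01, -0.98 and -0.63.

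**Figure D4:**
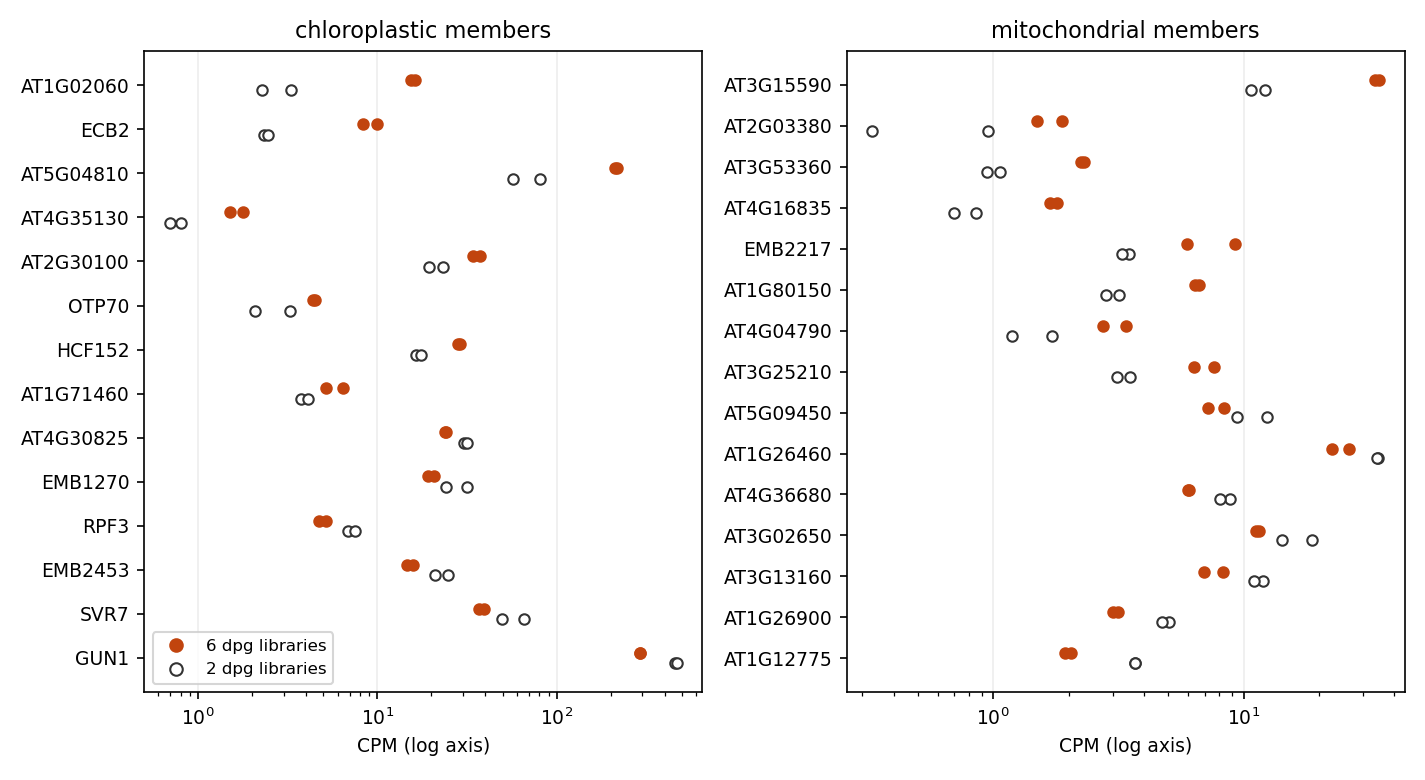
CPM of the members with the largest called rises and falls in each target, in the 6 dpg libraries (filled orange) and the 2 dpg libraries (open), on a log axis, with the largest rise at the top. In each of these members the filled and open points do not overlap; AT1G02060 stands at 16.2 and 15.4 CPM at 6 dpg against 2.29 and 3.32 CPM at 2 dpg, and GUN1 at 290 and 291 CPM against 455 and 468 CPM.

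The regions upstream of a rising and a falling chloroplastic member are shown because both hold 2 copies of the same letters, TGGGCC on either strand. The windows are the 250 bases before the RefSeq gene start in build TAIR10.1, written 5′ to 3′ on the gene's strand, with the matches in capitals. That of AT1G02060 is chr1:363143-363392 on the minus strand and that of EMB2453 is chr4:18395044-18395293 on the plus strand.
AT1G02060: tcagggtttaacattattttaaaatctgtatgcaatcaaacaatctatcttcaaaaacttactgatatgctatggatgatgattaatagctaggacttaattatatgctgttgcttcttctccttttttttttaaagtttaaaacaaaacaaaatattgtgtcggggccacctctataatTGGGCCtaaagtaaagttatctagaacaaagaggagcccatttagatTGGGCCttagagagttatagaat
EMB2453: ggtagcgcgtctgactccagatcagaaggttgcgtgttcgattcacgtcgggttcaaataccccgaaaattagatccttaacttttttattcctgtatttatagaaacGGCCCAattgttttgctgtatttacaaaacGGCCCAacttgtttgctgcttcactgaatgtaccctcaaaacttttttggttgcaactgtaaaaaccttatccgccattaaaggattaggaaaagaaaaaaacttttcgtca
TGGGCC, read on both strands, was in 14 of the 41 chloroplastic windows (34.1%), in 22 of the 108 mitochondrial windows (20.4%) and in 13.7% of the 27443 windows of protein-coding genes in the reference. Within the chloroplastic members, the median log2 fold change was -0.08 with the letters (2 higher and 2 lower of 14) and 0.06 without them (7 higher and 4 lower of 27). Within the mitochondrial members it was 0.31 with them (5 higher and 2 lower of 22) and 0.32 without them (20 higher and 5 lower of 83 tested). Over all tested genes with an upstream window, 28.9% were called higher and 26.0% lower with the letters, and 28.2% higher and 29.2% lower without them. The letters stood upstream of a larger share of members than of all genes, and a match here is of letters only, not of a bound site.

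Among mitochondrial members the largest rise was in AT3G15590, on the minus strand of chromosome 3 from 5275401 to 5277991 with 3 coding segments. It had 33.6 and 34.9 CPM at 6 dpg, against 12.2 and 10.7 CPM at 2 dpg. The ages were well separated, with a log2 fold change of 1.58 ± 0.13 (edgeR adjusted p = 2.75e-05). EMB2217, another gene named for an embryo-defective mutant, had 5.95 and 9.21 CPM at 6 dpg, against 3.48 and 3.27 CPM at 2 dpg. Its 6 dpg libraries were unequal but both higher (1.16 ± 0.24, adjusted p = 0.00342). AT1G80150 had 6.62 and 6.40 CPM at 6 dpg, against 2.83 and 3.17 CPM at 2 dpg (1.12 ± 0.19, adjusted p = 0.0012), and AT3G25210 had 7.61 and 6.35 CPM at 6 dpg, against 3.11 and 3.52 CPM at 2 dpg (1.08 ± 0.20, adjusted p = 0.00172). AT3G53360 had 2.25 and 2.30 CPM at 6 dpg, against 0.942 and 1.06 CPM at 2 dpg (1.19 ± 0.29, adjusted p = 0.0071). These 5 were called with each library left out in turn, and their 6 dpg libraries were all above their 2 dpg libraries.

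The other 3 of the 8 largest mitochondrial rises had few reads. AT2G03380 had 1.5 and 1.89 CPM at 6 dpg, against 0.328 and 0.955 CPM at 2 dpg, and the 2 dpg libraries differed from each other as much as the ages did (log2 fold change 1.44 ± 0.46, adjusted p = 0.0261). AT4G16835, whose protein ends in DYW, had 1.79 and 1.69 CPM at 6 dpg, against 0.696 and 0.854 CPM at 2 dpg (1.17 ± 0.33, adjusted p = 0.0135). AT4G04790 had 2.75 and 3.38 CPM at 6 dpg, against 1.19 and 1.71 CPM at 2 dpg (1.09 ± 0.29, adjusted p = 0.0108). None of the 3 was called without 2 dpg replicate 1 (adjusted p 0.0682 to 0.159). AT2G03380 then had a log2 fold change of 0.82, against 2.34 without 2 dpg replicate 2, and was not called without 6 dpg replicate 2 (adjusted p = 0.0809); AT4G16835 was not called without 6 dpg replicate 1 (0.073). With DESeq2 these 3 and AT3G53360 were not called (0.0547 to 0.118).

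The 7 mitochondrial falls were at most -0.88 in log2. AT1G12775 had 2.04 and 1.94 CPM at 6 dpg, against 3.69 and 3.67 CPM at 2 dpg, so the replicates were nearly equal at each age (-0.88 ± 0.23, adjusted p = 0.00958). It overlaps another gene, and its protein is 82.9% identical to that of AT1G12300. Whether its reads were shared with AT1G12300 or lost was not tested. AT1G26900 had 3.16 and 3.02 CPM at 6 dpg, against 5.04 and 4.72 CPM at 2 dpg (-0.66 ± 0.20, adjusted p = 0.0195). AT3G13160 had 6.95 and 8.29 CPM at 6 dpg, against 12.0 and 11 CPM at 2 dpg (-0.60 ± 0.16, adjusted p = 0.0114). Each of these lay lower in both 6 dpg libraries, as did AT3G02650, AT1G26460, AT4G36680 and AT5G09450, which fell by 0.54, 0.49, 0.49 and 0.49 on the log2 scale (adjusted p = 0.0179, 0.00922, 0.0279 and 0.0429). AT1G12775 alone of the 7 was called with each library left out: the other 6 were lost without 6 dpg replicate 1 (adjusted p 0.0653 to 0.222), and AT1G26900, AT3G02650, AT5G09450 and AT4G36680 also without 6 dpg replicate 2 (0.0559 to 0.117) and without 2 dpg replicate 1 (0.0749 to 0.237; AT3G02650 then -0.32 and AT5G09450 -0.28 in log2). Under ribosomal protein scaling none of the 7 was called (0.2 to 0.72), and DESeq2 called AT3G13160 and AT1G26460 and not the other 5 (0.0518 to 0.154).

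The upstream regions of the largest mitochondrial rise and of a falling member are shown for the other letters searched, AAACCCTA on either strand, and for a single TGGGCCCA that reads as TGGGCC on both strands at once. They are chr3:5278020-5278269 on the minus strand for AT3G15590 and chr5:2941548-2941797 on the plus strand for AT5G09450, from the same RefSeq build and written in the same way.
AT3G15590: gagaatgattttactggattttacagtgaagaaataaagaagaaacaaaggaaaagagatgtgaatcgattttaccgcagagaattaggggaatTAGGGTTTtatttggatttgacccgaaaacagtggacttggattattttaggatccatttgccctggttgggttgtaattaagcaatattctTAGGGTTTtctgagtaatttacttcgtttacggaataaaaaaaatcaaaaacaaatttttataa
AT5G09450: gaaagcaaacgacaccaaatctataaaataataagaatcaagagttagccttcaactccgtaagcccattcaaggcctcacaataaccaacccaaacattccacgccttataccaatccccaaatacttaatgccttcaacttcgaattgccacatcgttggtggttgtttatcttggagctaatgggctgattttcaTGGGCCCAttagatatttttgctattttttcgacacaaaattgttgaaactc
AAACCCTA was in 11 of 108 mitochondrial windows (10.2%), in 3 of 41 chloroplastic windows (7.32%) and in 4.49% of all windows. The 10 tested mitochondrial members with it had 3 rises, no fall and a median log2 fold change of 0.36, and the 95 without it had 22 rises, 7 falls and a median of 0.27. All 3 chloroplastic members with it were uncalled, with log2 fold changes of -0.30 to -0.18. Over all tested genes with an upstream window, 30.4% were called higher and 25.4% lower with these letters, and 28.2% higher and 28.8% lower without them.

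By level, the leading mitochondrial members moved differently from each other. AT1G07590 had 77.9 and 72.3 CPM at 6 dpg, against 46.4 and 38.8 CPM at 2 dpg, and rose by 0.82 ± 0.13 in log2 (adjusted p = 0.000825), though its span overlaps another gene. Its level per length was 33.8 FPKM at 6 dpg and 17.0 FPKM at 2 dpg. AT4G01400 had 58.7 and 62.0 CPM at 6 dpg, against 75.4 and 69.6 CPM at 2 dpg, with both 6 dpg libraries lower, and was not called (-0.27 ± 0.12, adjusted p = 0.0788). RefSeq gives this locus as a Golgi complex subunit-like protein and its gene there covers 35.5% of the authors' span, so the description word may not be that of all its reads. AT4G35850 had 24.3 and 24.7 CPM at 6 dpg, against 26.8 and 21.5 CPM at 2 dpg, with overlapping ages (0.02 ± 0.14, adjusted p = 0.918). Among the leading chloroplastic members, MRL1, which stabilises the plastid rbcL mRNA for the large subunit of Rubisco, had 154 and 152 CPM at 6 dpg, against 137 and 151 CPM at 2 dpg. The ages nearly met, and it was not called (0.09 ± 0.11, adjusted p = 0.527); with the length trend removed the value was -0.34.

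Of 57 PPR genes listed with a known role and a symbol in the annotations, 28 were members, 24 were described with neither word and 5 were not described as pentatricopeptide repeat genes. In 4 of the 28 the description word names another organelle than the one where the protein is known to work: CRR28 is described as mitochondrial and edits plastid transcripts, and OTP87, BIR6 and RPF3 are described as chloroplastic and act in mitochondria. With these 4 moved to the known organelle, 9 plastid members rose and 5 fell with a median of 0.07, and 25 mitochondrial members rose and 8 fell with a median of 0.30.

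Few of the listed plastid editing factors were called. Of 6 listed members, ECB2 rose and none fell, against 28.3% higher and 28.4% lower of all genes. The median log2 fold change of the 6 was 0.00. The list does not hold every member that ends in DYW: DYW1, outside it, had 0.11 and was not called. CLB19 (AT1G05750), which edits rpoA and clpP transcripts, had 4.37 and 4.61 CPM at 6 dpg, against 2.79 and 3.52 CPM at 2 dpg, higher in both 6 dpg libraries but not called (0.51 ± 0.21, adjusted p = 0.0679). CRR4, which edits ndhD, had 1.46 and 1.02 CPM at 6 dpg, against 1.88 and 1.91 CPM at 2 dpg, lower in both but not called (-0.60 ± 0.30, adjusted p = 0.123). OTP81, OTP84 and CRR28 had log2 fold changes of -0.25, -0.24 and 0.24 and none was called. The spans of CLB19, OTP81 and CRR28 overlap another gene. In mitochondria, MEF8S alone of 6 listed editing members rose (0.57 ± 0.20, adjusted p = 0.0383). It had 4.99 and 5.37 CPM at 6 dpg, against 3.20 and 3.82 CPM at 2 dpg. Its span overlaps another gene. MEF3, an editing factor of atp4, had 1.12 and 0.921 CPM at 6 dpg, against 0.533 and 0.603 CPM at 2 dpg; these counts are low and the gene was not called (0.86 ± 0.38, adjusted p = 0.0815). SLO1, MEF9, COD1 (AT2G35030) and OTP87 had values of 0.30, 0.20, -0.15 and -0.33 and were not called.

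Of 7 members listed for plastid transcription, splicing, processing and stability, PTAC2, OTP70 and HCF152 rose and none fell. Among all genes 28.3% were called higher and 28.4% lower. SVR7, listed for plastid translation, and GUN1, listed for signalling, are not among these 7, and both fell. The role list does not hold every chloroplastic member, so the lack of falls describes these listed genes only. Called members outside the list include falls (EMB2453, EMB1270 and AT4G30825) and rises (AT1G02060, AT5G04810, AT4G35130, AT2G30100 and AT1G71460). PTAC2, a component of the plastid-encoded RNA polymerase complex, had 53.6 and 56.9 CPM at 6 dpg, against 40.6 and 43.6 CPM at 2 dpg. Both 6 dpg libraries were higher (0.39 ± 0.12, adjusted p = 0.0185). Besides HCF152 and OTP70 above, EMB2279 for plastid introns had 0.07, CRR2 for processing of ndhB transcripts 0.12 and PGR3 for petL and ndh transcripts -0.16 in log2 fold change, and none of these 3 was called. The span of PGR3 overlaps another gene. Among mitochondrial processing factors, RPF3, which forms the 5′ end of ccmC transcripts, had 4.74 and 5.17 CPM at 6 dpg, against 6.88 and 7.49 CPM at 2 dpg. RPF6 (AT1G63130) had 6.99 and 9.06 CPM at 6 dpg, against 11.1 and 10.7 CPM at 2 dpg, lower in both libraries but just short of the threshold (-0.44 ± 0.17, adjusted p = 0.0504). The proteins of RPF3 and RPF6 are 85.8% identical, and whether reads of these genes were shared or lost was not tested. RPF2 had 0.49 (adjusted p = 0.0946). The splicing factors ABO5 and BIR6 had 0.45 and -0.17, PPR40 of respiratory complex III had 0.27 and PPR336, which associates with mitochondrial ribosomes, had -0.03, none of them called. Calls among role members depended on settings besides those given above for OTP70, SVR7 and RPF3. PTAC2 and MEF8S were not called with the length trend removed (adjusted p 0.0586 to 0.582, PTAC2 at 0.07 in log2), without 6 dpg replicate 1 or without 6 dpg replicate 2, and MEF8S was also lost without 2 dpg replicate 1 and with DESeq2.

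**Figure D5:**
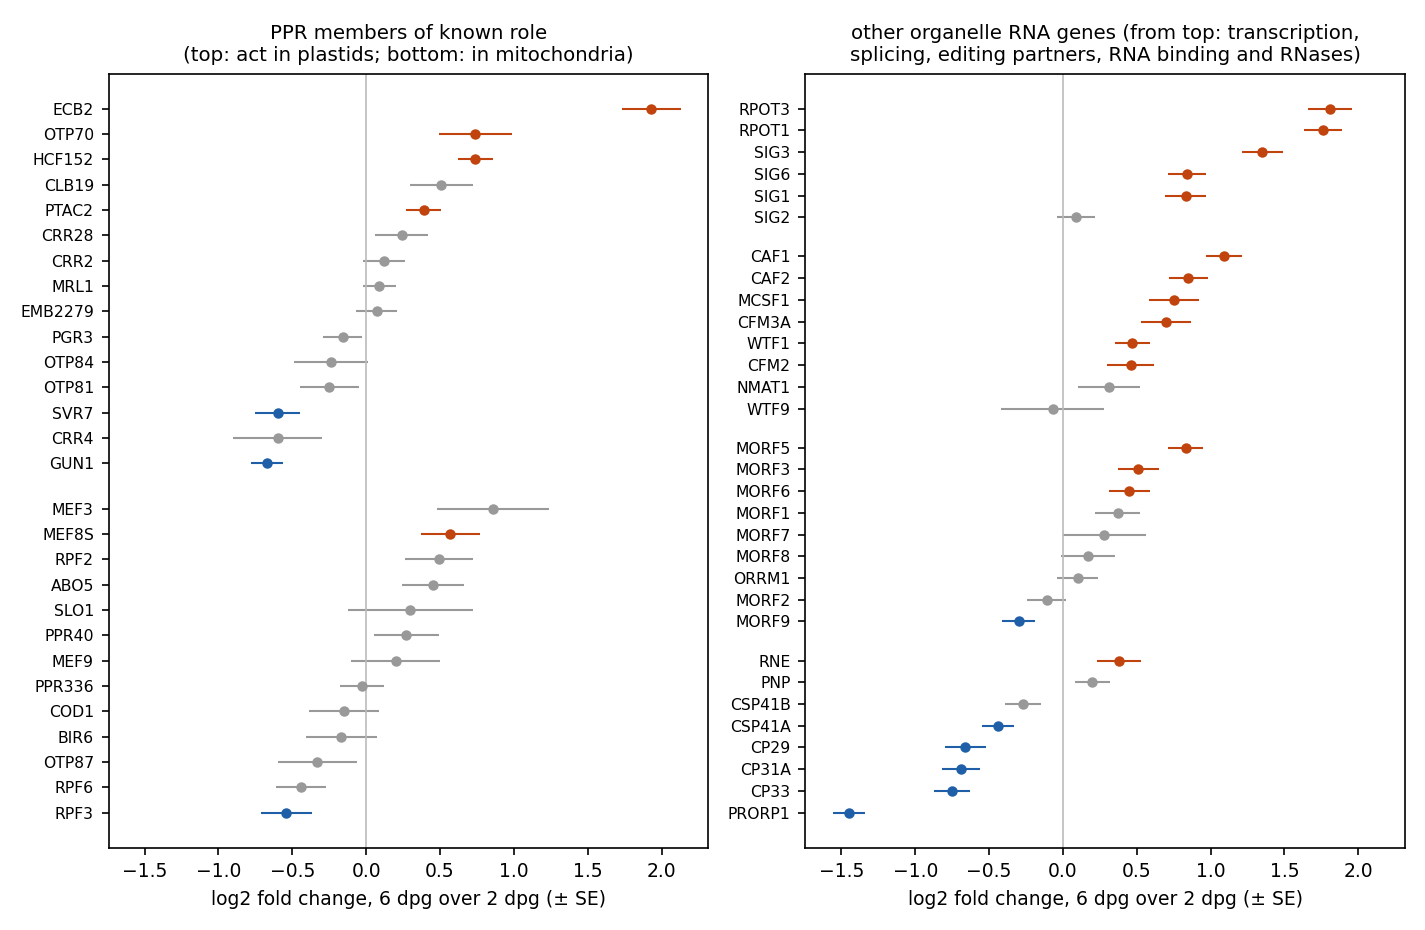
Log2 fold change (6 dpg over 2 dpg, ± SE) of the members with a known role (left, those acting in plastids above those acting in mitochondria) and of other nuclear genes for organelle RNA (right). Orange marks genes called higher, blue genes called lower and grey genes not called; on the left ECB2 at 1.93 stands apart, and on the right RPOT3 at 1.81 and RPOT1 at 1.76 lie at the top and PRORP1 at -1.45 at the bottom.

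A further 31 nuclear genes for organelle RNA were listed, none of them described as a pentatricopeptide repeat gene. A description does not settle if a protein, such as that of PRORP1, holds such repeats. All 31 were tested, and 15 rose (48.4%) and 6 fell (19.4%), against 28.3% and 28.4% of all genes. Their median log2 fold change was 0.37. Of 6 genes for organelle RNA polymerases and sigma factors, 5 rose. RPOT3 (AT2G24120), the chloroplast phage-type polymerase, had 23.8 and 26.8 CPM at 6 dpg, against 6.55 and 7.94 CPM at 2 dpg (1.81 ± 0.15, adjusted p = 3.07e-05). RPOT1 (AT1G68990), the mitochondrial one, had 28.4 and 29.8 CPM at 6 dpg, against 8.19 and 9.0 CPM at 2 dpg (1.76 ± 0.13, adjusted p = 1.7e-05). In both, the 6 dpg libraries were far above the 2 dpg ones, and the plastid sigma factors SIG3, SIG6 and SIG1 rose by 1.35, 0.84 and 0.83 in log2. Of 8 splicing factors 6 rose and none fell, led by CAF1 at 1.09 and CAF2 at 0.85, which act on plastid group II introns, and with MCSF1 for mitochondrial introns at 0.75. Of 9 editing partners of PPR proteins, MORF5, MORF3 and MORF6 rose by 0.83, 0.51 and 0.45, and MORF9, which works in plastids, fell by 0.30 (adjusted p = 0.0412).

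RNA-binding proteins and RNases of the organelles mostly fell. Of 8 such genes 5 fell and 1, RNE, rose by 0.38 (adjusted p = 0.0497). PRORP1, a proteinaceous RNase P that cuts the 5′ ends of organelle tRNA precursors, had 41.7 and 41.5 CPM at 6 dpg, against 116 and 112 CPM at 2 dpg. Its replicates were close and its fall was -1.45 ± 0.11 in log2 (adjusted p = 2.31e-05). The chloroplast ribonucleoproteins CP33, CP31A and CP29 fell by 0.75, 0.69 and 0.66, and CSP41A by 0.44. Under ribosomal protein scaling these 4 and MORF9, then at 0.04, were not called (adjusted p 0.0752 to 0.887), and PRORP1 was. The spans of RPOT1, MCSF1, MORF3, RNE, CP33 and CSP41A overlap another gene, as do those of the splicing factors CFM3A, which rose, and NMAT1 and WTF9, which were not called. MORF9, RNE and CFM2 were not called with the length trend removed (0.253 to 0.971), and these 3, MORF6, CSP41A and WTF1 were lost without either 6 dpg library and MORF3 without 6 dpg replicate 1 (0.0519 to 0.252). RNE and CFM2 were also lost without 2 dpg replicate 1 (0.0901 to 0.159) and MORF6 without 2 dpg replicate 2 (0.0717). DESeq2 did not call MORF9, RNE, MORF6 and MORF3 (0.0638 to 0.0825).

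The proteins of the 2 targets differed in make-up. By translation of the RefSeq coding sequences, 27 of 41 chloroplastic and 88 of 108 mitochondrial members had 1 coding segment, and the median protein was 710 residues long in chloroplastic members and 599 in mitochondrial ones. The protein ended in the residues DYW in 4 chloroplastic members, of which none was called, and in 7 mitochondrial members, of which 6 were tested and 2 rose. The spacing at which residues most often recurred was 35, 70 or 105, as in tandem repeats of the P class, in 19 chloroplastic and 64 mitochondrial members. All 6 chloroplastic falls were in the 19 chloroplastic ones (31.6% lower, against 28.4% of all genes), beside 3 rises. The median log2 fold change of these 19 was -0.10. A spacing of 100 to 103, as in the repeated triplets of the PLS class, was found in 10 chloroplastic members, with 3 rises, no fall and a median of 0.01, and in 20 mitochondrial members, with 5 rises and 1 fall among the 19 tested and a median of 0.64. The mitochondrial members with a spacing of 35, 70 or 105 had 14 rises and 4 falls among 63 tested and a median of 0.25. A spacing of 31 or another value was found in 12 chloroplastic members, with 3 rises, no fall and a median of 0.10. It was also found in 24 mitochondrial members, with 6 rises and 2 falls among 23 tested and a median of 0.53. Some of these, such as REME1, end in DYW, so a spacing of 100 to 103 marks only part of the PLS class. The P-like and PLS-like groups differed in level too. The median PLS-like mitochondrial member had 0.698 FPKM at 6 dpg and 0.358 FPKM at 2 dpg. The median mitochondrial member with the P-like spacing had 2.06 FPKM at 6 dpg and 1.54 FPKM at 2 dpg. Among chloroplastic members the median of the mean normalized count was 762 with the P-like spacing and 78.4 with the PLS-like spacing. The part of depth in where falls were called was not tested.

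Some members share sequence with a neighbour or a copy. The span of 21 members, 7 chloroplastic and 14 mitochondrial, overlaps another gene of the table; without them 7 chloroplastic members rose and 6 fell, with a median of -0.08, and 21 mitochondrial members rose and 6 fell, with a median of 0.33. For 10 members another gene encodes a protein at least 80% identical over most of its length, such as AT3G62540, at 99.7% to AT5G14820, and AT3G61520, at 98.7% to AT5G28460. Identity was measured between proteins only, and whether reads were split between copies or lost was not tested. On chromosome 1 the 8 members from AT1G62590 to AT1G64583, a stretch that holds RPF2, RPF3 and RPF6, had 7 tested, 1 fall, no rise and a median log2 fold change of -0.21. Gene length moved with the fold change over all tested genes (Spearman's rho 0.23 across 16160 genes) and among mitochondrial members (0.21 across 105), and hardly among chloroplastic members (0.01 across 41); these are values across genes of the same 4 libraries, not of replicates. By length, the median log2 fold change from 1500 to 2000 bases was -0.02 over 10 chloroplastic and 0.31 over 42 mitochondrial members, against -0.01 for all genes of that length. From 2000 to 2500 bases it was 0.18 over 8 and 0.40 over 36, against 0.16, and from 2500 to 3000 bases -0.15 over 13 and 0.58 over 11, against 0.26. From 3000 to 5000 bases it was 0.08 over 8 and 0.03 over 6, against 0.40, so the longest members of both targets lay below all genes of their length.

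Of the 226 PPR genes described with neither word, 203 were tested, and their median log2 fold change was 0.39. Of those tested, 49 rose (24.1%) and 7 fell (3.45%), against 28.3% and 28.4% of all genes. Their median level was 1.03 FPKM at 6 dpg and 0.782 FPKM at 2 dpg. In the authors' deposited table, 8 chloroplastic members had an adjusted p under 0.05, of which 6 were higher and 2 lower at 6 dpg here, and 18 mitochondrial members had one, of which 15 were higher and 3 lower. All 26 of these members were also called here. Over all 26784 genes of that table, 7373 had an adjusted p under 0.05, of which 3763 were higher and 3575 lower at 6 dpg here.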

How the data were processed

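Total RNA of seedlings was extracted with TRIzol and made into libraries by NEBNext Ultra RNA chemistry, per the labels' protocols. That chemistry leaves strand unmarked. The submitters' processing notes name DESeq 1.18.0, HTSeq 0.6.1, TopHat2 2.0.12, Bowtie2 2.2.3 and CASAVA 1.8. Which genome build and gene models were used is not given in the sources used here. Per gene and library, the deposited table holds the authors' read count and FPKM. It also holds the authors' p-value, which was used only where named.

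Count, FPKM and gene length gave library totals of 22745278 and 18330153 reads at 6 dpg and 26570983 and 20587872 reads at 2 dpg, on which 66.7 to 67.8% of genes agreed within 0.01%; counts on the table were 79.9 to 81.0% of them. Counts were tested by quasi-likelihood in edgeR 4.0.16 under R 4.3.3 (filterByExpr, minimum count 10; TMM on these totals; Benjamini-Hochberg adjustment over 16160 genes, threshold 0.05) and the script was tested on simulated data. The SE is the fold change divided by the square root of F. Alternatives were DESeq2 1.42.0, other scalings and filters, a length trend (lowess span 0.3) and leaving out libraries. Named genes were, in each target, up to 8 called rises and 8 called falls whose mean normalized count was at least 20, the 3 highest by FPKM, and genes with a listed role; the 3 untested members, the examples of near copies and the 4 upstream windows printed were chosen after their values were seen. The members and lists were chosen with earlier results of these data known. Replicates differed by more than counting error (chi-square per degree of freedom 6.22 at 6 dpg and 17.2 at 2 dpg), and the biological coefficient of variation was 11%. All 149 members were matched by locus to RefSeq TAIR10.1, from which upstream windows and protein features were read; 66 share a start or end with it.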

Additional observations from a re-analysis of the deposited data

How the results depend on the processing

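Same-numbered libraries did not deviate together (correlation of deviations -0.00976), so the numbers were not taken as pairs; with the replicate block 9099 genes were called in place of 9153, with 10 rises and 7 falls among chloroplastic members and 26 and 9 among mitochondrial members. The difference of medians, chloroplastic minus mitochondrial, was -0.33 with the block too. DESeq2 called 12 mitochondrial rises and 2 falls, and 19 of the called genes among the 75 named lost their call with it. Named genes such as MRL1 and CRR2 had no call to lose. MORF9 also lost its call with the replicate block and with no low-count filter. Ribosomal protein scaling gave no falls (0 and 0), 44 mitochondrial rises and medians of 0.32 (chloroplastic) and 0.68 (mitochondrial). It also turned AT4G01400 to 0.09, PPR336 to 0.34, OTP87 to 0.02, OTP81 to 0.11, COD1 to 0.19, BIR6 to 0.18, OTP84 to 0.13, PGR3 to 0.19 and MORF9 to 0.04. With the length trend removed, 10 chloroplastic and 13 mitochondrial members fell and the chloroplastic median was -0.21, and with the replicate block and the length trend the mitochondrial falls were 12 and that median again -0.21; in both, MRL1 stood at -0.34, EMB2279 at -0.28 and CRR2 at -0.04. The chloroplastic median was -0.08 without members that overlap another gene and 0.07 with the known target in place of the description word, an alternative chosen after seeing the data. With 1 library left out, 6951 to 9497 genes were called. Chloroplastic rises then numbered 5 to 12, falls 1 to 7, and the median ran from -0.08 to 0.06 (0.06 without 2 dpg replicate 2). Mitochondrial rises numbered 16 to 19, falls 2 to 9, the median ran from 0.29 to 0.31 and the difference of medians from -0.39 to -0.25. Small values changed sign there: AT4G35850 (-0.14 to 0.19), EMB2279 (-0.08 to 0.24), PPR336 (-0.21 to 0.18), MEF9 (-0.03 to 0.40), SLO1 (-0.18 to 0.93) and COD1 (-0.31 to 0.01). The cause of these shifts was not tested. DESeq2's size factors and column sums as library size changed no call among named genes. None of the 16 mitochondrial members under 20 counts was called, at a median SE of 0.44 in log2, although 36.0% of all genes at that depth were.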
